A study of Mus musculus with 2 samples.

Results

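The 43 genes described here encode the ligands, receptors, SMAD proteins, antagonists, matrix storage and processing proteins and immediate targets of transforming growth factor beta (TGF-beta) and bone morphogenetic protein (BMP) signalling. They were taken from a written list, not by a cut on any measured value, but the list was chosen with earlier results of these data known. All 43 were found among the 21646 protein-coding genes of GENCODE release M21 on chromosomes 1 to 19 and X. They fell into 6 roles: 11 ligands, 12 receptors, 8 SMADs, 4 antagonists, 5 storage and processing genes and 3 targets. What was measured is where the DNA-binding protein CTCF was bound in lung tissue of newborn B6NCrl mice at postnatal day 0, by chromatin immunoprecipitation with sequencing. There was 1 group of 2 replicates, to which the labels give the same biosample and the same donor, with the sex not collected, so their spread could be technical in part or whole. The list of reproducible sites used here held 64732 sites on these chromosomes, of which 331 lay in the 43 genes or within 25000 bp of them. Binding sites do not measure expression, so the tissue label could not be checked against marker genes. Over all sites, 48.3% held the core motif of CTCF within 50 bp of the summit, against 1.28% of windows 1000 bp away.

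TGF-beta, activin and BMP ligands are secreted dimers that bring together type I and type II receptor kinases, which phosphorylate SMAD proteins. The phosphorylated SMADs join Smad4 and act on genes in the nucleus. In the developing lung, BMP signals act on the growth of the airway buds, TGF-beta signals act on the mesenchyme and on the forming alveoli, and loss of function of the receptors Bmpr2, Acvrl1 or Eng is a known cause of inherited disease of the lung or blood vessels. CTCF is a zinc finger protein that halts the movement of cohesin along chromatin, and pairs of its motifs that face each other are often found at the ends of chromatin loops.

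The sequences below show the DNA at the sites on which the description turns. Each is 30 bases, read 5′ to 3′ on the strand named, from the GRCm38 reference (mm10 in the authors' lists), and capitals mark the 12 bases that best match the core motif. The strongest promoter site with the core (at most 1 mismatch) is shown for receptors, SMADs and storage genes. The promoter sites of ligands, antagonists and targets held no core.
Acvr1 promoter, chr2:58567365-58567394, minus strand, 1 mismatch: ggccgggcgCCTGCAGGGGGCgcgaggagc
Smad6 promoter, in a coding exon, chr9:64021859-64021888, minus strand, 1 mismatch: accgcggggCCACCAGGAGGCactttggtg
Ltbp4 promoter, in an intron, chr7:27332789-27332818, plus strand, 1 mismatch: tcccttcctCCCCCAGGGGGCgccctttcc

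The 4 strongest sites with the core inside the genes, all in introns, were the following.
Ltbp4, chr7:27336066-27336095, plus strand, 1 mismatch: taacatcgaACAGTAGGTGGCgctacatgc
Acvr1b, chr15:101198385-101198414, minus strand, 0 mismatches: gctcactagCCACTAGAGGGCgatgctgtg
Acvr2b, chr9:119430502-119430531, minus strand, 0 mismatches: ctcctgggtCCAGCAGAGGGCaccagaacg
Ltbp2, chr12:84784659-84784688, plus strand, 0 mismatches: gacacacgcCCACTAGGGGGCagcagcgtg

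The strongest sites of 4 genes lay outside them, and they are shown because they were among the strongest around these genes. They were chosen after their values were seen. The strongest sites of Tgfb2, Ltbp3 and Id3 also lay outside and were stronger than those of Nog and Acvrl1, but are not printed.
Eng, chr2:32689567-32689596, plus strand, 1 mismatch: tgtgagtcaCCACAAGGGGGCgctgctcca
Id2, chr12:25092417-25092446, plus strand, 1 mismatch: tcatatttgCCAGAAGGTGGCgctcggcct
Nog, chr11:89303626-89303655, minus strand, 0 mismatches: cacaaagggCCAGCAGAGGGCgcgccgccc
Acvrl1, chr15:101145555-101145584, minus strand, 0 mismatches: gcgcattggCCAGCAGAGGGCgacgtggct
The 12 capitals of the Acvr2b, Nog and Acvrl1 sites are the same.

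A pair of strong promoter sites of ligands had no core, and their best match is shown for comparison. They too were chosen after their values were seen.
Tgfb3, chr12:86079575-86079604, minus strand, 2 mismatches: ggccctgctTCGCCAGAGGGCaccctcggc
Inhba, in a UTR, chr13:16012359-16012388, plus strand, 2 mismatches: tggaaactgCCAGCAGGTGCTgctcaaggt

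CTCF sites were found at the promoters of 27 of the 43 genes (62.8%), where a promoter site is one whose summit lay within 1000 bp of the transcription start site (TSS) of a protein-coding transcript of the gene. Of all protein-coding genes 39.8% had such a site. By role, the counts were 6 of 11 ligands (54.5%), 9 of 12 receptors (75%), 4 of 8 SMADs (50%), 2 of 4 antagonists (50%), 4 of 5 storage and processing genes (80%) and 2 of 3 targets (66.7%). In this list every role had a share above that of all genes, and receptors and storage genes had the highest. The conservative list is the other list of reproducible sites that the authors deposited. There, promoter sites were counted at 31 of the 43 genes (72.1%, all genes 38%), 8 of 11 ligands, 9 of 12 receptors and 6 of 8 SMADs. Receptors thus did not stand above SMADs in that list. The antagonists did not exceed all genes there or without replicate 2, with 1 of 4 against 38% and 40.3% of all genes. No test was made of these genes against others or of one role against another, since genes are not replicates and the roles hold few genes. Among the 32366 sites of highest signal alone, promoter sites were counted at 13 of the 43 genes (30.2%), against 19.2% of all genes, but at 1 of 8 SMADs and 0 of 4 antagonists. With a limit of 5000 bp from the TSS, the count was 38 genes (88.4%), against 56.6% of all genes.

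**Figure D1:**
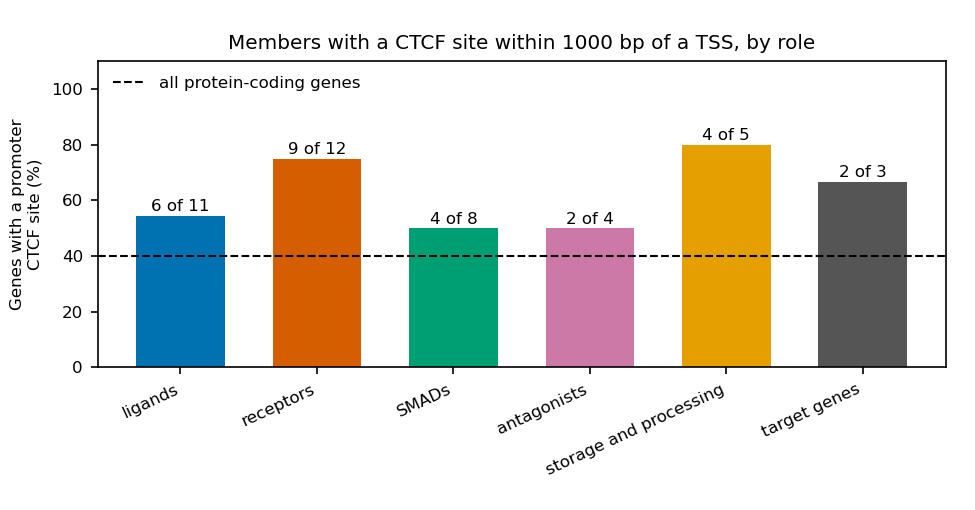
Percent of genes (y axis) with a CTCF site within 1000 bp of a TSS, as 1 bar per role with the number of genes above it, and a dashed line at the 39.8% of all protein-coding genes. Every bar stands above the line, and storage genes (80%) and receptors (75%) stand highest. Without replicate 2 the antagonists would stand at 1 of 4, below it. In the conservative list SMADs would stand at 6 of 8, level with receptors at 9 of 12.

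The genes differed from the average gene in features that go with promoter sites. GC content within 500 bp of the outermost 5′ end had a median of 62.6% in the 43 genes and 54.8% in all genes. Where it was 60% or more, 17 of 27 of these genes (63%) and 61.7% of all genes had a promoter site. Where it was lower, 10 of 16 of these genes (62.5%) and 30.9% of all genes had one. The share was thus near the background among genes with the higher GC content and above it among the rest. By number of TSSs, a promoter site was found at 9 of 16 of these genes with 1 TSS (56.2%, all genes 30.1%), at 9 of 15 with 2 or 3 (60%, all genes 38.8%) and at 9 of 12 with 4 or more (75%, all genes 59.8%). In each of these classes the share of the 43 genes stood above that of all genes. The part that GC content plays in the shares was not tested.

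The 27 genes held 37 promoter sites, of which 13 lay upstream of the gene, 14 in a UTR, 7 in an intron and 3 in a coding exon. Signal is the value that the authors deposited for each peak, in a scaling not given in the sources used here; below, each pooled signal is followed in parentheses by the signals in replicates 1 and 2. The median was 54.7 (27.1, 27.4) over these 37 sites and 56.6 (31.4, 29.2) over all promoter sites. The replicate 2 value of 27.4 covers the 34 sites with a peak in that replicate and leaves out 3. The replicate medians over all promoter sites likewise leave out sites without a peak in the replicate. Of the 37 sites, 7 (18.9%) were among the 16183 sites of highest signal, against 18.3% of all promoter sites. The promoters of these genes were thus bound more often than those of the average gene, with a signal near the median of all promoter sites. The 7 sites belonged to ligands (Tgfb1, Tgfb3 and Inhba) and to storage and processing genes (Ltbp1, Ltbp2, Ltbp4 and Bmp1).

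**Figure D2:**
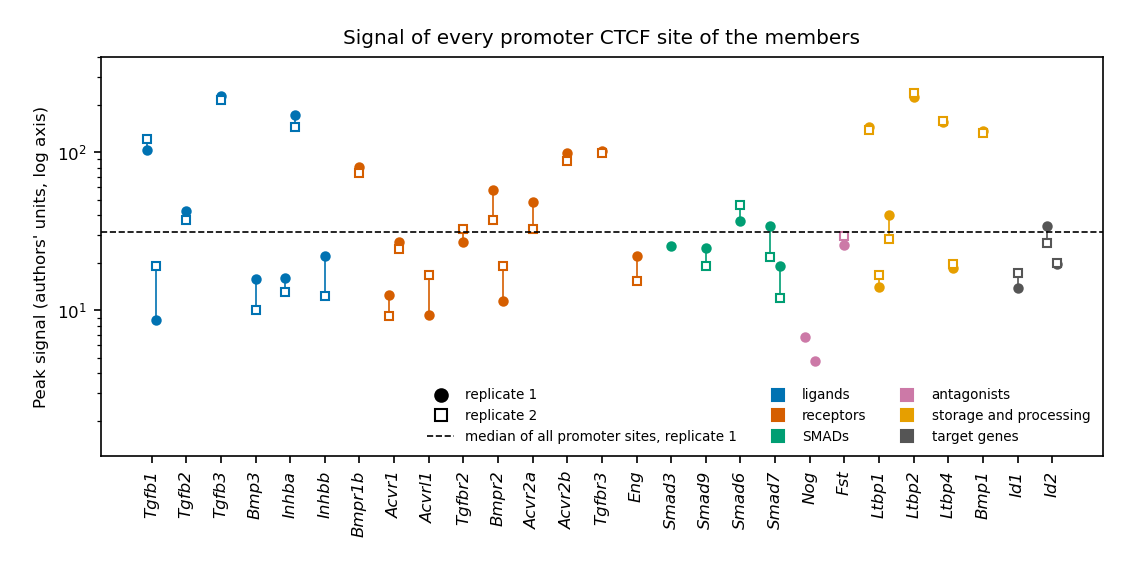
Signal in the authors' units (y axis, log axis) of every promoter site in replicate 1 (filled circles) and replicate 2 (open squares), joined by a line, for the 27 genes that have one, coloured by role; the dashed line is the median of all promoter sites in replicate 1, 31.4. The highest points are Ltbp2 and Tgfb3, the lowest are the Nog sites, and Nog and Smad3 have no point for replicate 2.

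Among the ligands, Tgfb3, which is needed for closure of the palate and for lung development, had the strongest promoter site, at chr12:86079457-86079717, 545 bp upstream of its TSS, with a signal of 438 (226, 215). Inhba, which encodes the activin A subunit, held a site of 314 (171, 145) at chr13:16012275-16012490 in its UTR and a weaker one of 27.5 (16.1, 13.1) nearer to its TSS. Tgfb1, the main TGF-beta of immune and stromal cells, had a site of 219 (103, 121) at chr7:25686695-25686905, 196 bp upstream, and a weak one of 28.7 (8.71, 18.95) in its UTR. The replicates gave near values at the strong site of each of these genes, while the weak Tgfb1 site was lower in replicate 1 than in replicate 2 by more than 2 times and was not in the conservative list. Tgfb2, the TGF-beta of heart and skeletal development, had a site of 73.9 (42.5, 37.2) at chr1:186705498-186705777 in its UTR. Bmp3, which counters the bone-forming BMPs, and Inhbb, which encodes the activin B subunit, had weak upstream sites of 27.3 (15.9, 10.1) at chr5:98854268-98854547 and 34.6 (22.2, 12.4) at chr1:119422734-119423013. Both were higher in replicate 1.

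The other 5 ligands, all of them BMPs, had no promoter site in the list used here. In the conservative list Bmp4 and Bmp6 had one. Without replicate 1 Bmp2 and Bmp6 had one and Bmp3 had none, and without replicate 2 Bmp4 had one. Bmp4, which acts at the tips of the airway buds, had its nearest site in an intron at chr14:46388799-46388990, 1648 bp from the TSS, with a signal of 180.2 (89.2, 91.6) and no core. The nearest site of Bmp2, a ligand of bone and heart development, lay 1171 bp from the TSS in its UTR at chr2:133553190-133553469, with 27.1 (13.4, 14.2) and the core. Bmp7, which is needed for kidney and eye development, had a nearest site 1501 bp away with a signal of 47.3 (22.4, 23.4). Bmp6, known for its control of iron balance, had one 1659 bp upstream with 66.4 (33.7, 33.4). Bmp5, a ligand of cartilage growth, was the farthest of the 5, with its nearest site in an intron at chr9:75783615-75783894, 8391 bp away and at 54.1 (31.8, 22.8). For 4 of the 5 BMPs the nearest site therefore lay between 1171 and 1659 bp from a TSS, just beyond the limit.

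Of the type I receptors, Bmpr1b, a BMP receptor, had the strongest promoter site, in its UTR at chr3:142169217-142169365 with 156 (80.9, 73.4). Acvr1, which binds both activins and BMPs, had a pair, 49.6 (27.1, 24.3) with the core at chr2:58567221-58567500 and 22.0 (12.6, 9.15) in an intron at chr2:58566527-58566806. Both sites also lay within 1000 bp of a TSS of Upp2, the only other gene that shared a promoter site with these 43. Acvrl1, the BMP9 and BMP10 receptor of endothelium, had one weak site in an intron at chr15:101128549-101128828, with 31.0 (9.41, 16.6), which was lower in replicate 1 and not in the conservative list. Tgfbr1, the TGF-beta type I receptor, Bmpr1a, the main BMP type I receptor, and Acvr1b, an activin receptor, had no promoter site. The nearest site was 1604 bp upstream for Tgfbr1, with 211 (109.9, 100.8), and 1450 bp away for Bmpr1a at chr14:34459001-34459201, with 224 (115, 109) in repeat-masked sequence. For Acvr1b it was 11706 bp away, with 58.6 (31.5, 25.4).

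All 4 type II receptors of the written list had a promoter site. Amhr2, a receptor of the wider list described below, had none. Acvr2b, an activin and Nodal receptor, had the strongest, 192 bp upstream at chr9:119401858-119402026 with 188 (98.98, 88.6). Bmpr2, the BMP type II receptor, had 91.5 (57.4, 37.4) at chr1:59763168-59763447 and a weaker 36.2 (11.5, 19.05) in its UTR. Acvr2a, an activin receptor, had 81.5 (48.1, 32.5) at chr2:48813632-48813911, and Tgfbr2, the TGF-beta type II receptor, had 60.1 (27.1, 32.9) in its UTR at chr9:116175038-116175317. The upstream sites of Bmpr2 and Acvr2a were higher in replicate 1, and the UTR sites of Bmpr2 and Tgfbr2 in replicate 2. Of the co-receptors, Tgfbr3, which presents TGF-beta2 and inhibins, had 202 (102, 98.2) in its UTR at chr5:107289311-107289516, which ranked 16679 and so fell just outside the 16183 sites of highest signal. Eng, the endoglin of endothelium, had a weak upstream site with the core, 37.5 (22.2, 15.2) at chr2:32645935-32646214.

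Among the SMADs that receptors phosphorylate, Smad3 and Smad9 had a promoter site, and Smad1, Smad2 and Smad5 had none. The Smad3 site, chr9:63757920-63758199, had a pooled signal of 45.5 and 25.6 in replicate 1, with no peak of replicate 2 within 100 bp. Smad9, a BMP-responsive SMAD, had 43.4 (24.6, 18.98) in an intron at chr3:54756075-54756354. Smad4, the partner of all of the former, had no promoter site, and its nearest was in an intron 3886 bp away with 276 (150.1, 125). The inhibitory SMADs, which are themselves induced by the pathway, both had promoter sites with the core. Smad6 had 81.3 (36.8, 46.2) in a coding exon at chr9:64021763-64022042, and Smad7 had 54.7 (34.1, 21.8) in its UTR, 51 bp from the TSS, and 30.7 (19.05, 11.9) without the core at an internal TSS. None of these sites reached the 16183 sites of highest signal, and Smad6 was the strongest. The nearest sites of Smad1, Smad2 and Smad5 lay 12962, 3866 and 3425 bp from a TSS, with 76.0 (39.7, 35.4), 66.8 (31.0, 35.5) and 58.7 (32.1, 26.4).

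The antagonists, which bind ligands outside the cell, ranged from genes with weak or moderate promoter sites to genes with no site at all. Fst, or follistatin, which binds activins, had a promoter site in a coding exon at chr13:114458394-114458673 with 56.3 (25.8, 29.4). The promoter of Nog, or noggin, which binds BMPs, held the weakest sites of all, 14.6 at chr11:89301949-89302228 and 9.66 at chr11:89302185-89302464. They had 6.75 and 4.80 in replicate 1 and no partner in replicate 2, and they were not in the conservative list. The count of antagonists with a promoter site was 2 without replicate 1, and it was 1, with Nog lost, without replicate 2 and in the conservative list. Without replicate 1, Nog had no site in the gene, so it was counted by another peak, outside the gene. Chrd, or chordin, and Grem1, or gremlin, which also bind BMPs, had no site in the gene at all. The nearest to Chrd, 8471 bp upstream at chr16:20724521-20724769 in the gene Thpo, was strong, with 414 (215, 201.3). The nearest to Grem1 lay 49234 bp upstream, with 238 (116, 121), so Grem1 was the only gene with none within 25000 bp in this list. In the conservative list, and with either replicate left out, Grem1 did have a site within that distance.

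The storage and processing genes encode the latent TGF-beta binding proteins, some of which hold TGF-beta in the matrix, and the protease Bmp1, which cleaves procollagen and chordin. These genes had the highest median promoter signal of the 6 roles, 267 (136, 133), and the strongest single site, that of Ltbp2. The ligand sites of Tgfb3 and Inhba were stronger than those of Ltbp1, Ltbp4 and Bmp1. Ltbp2 had 459 (224, 238) at chr12:84876770-84877116, 405 bp upstream, which ranked 679 among all sites. Ltbp1 had 281 (144, 137) with the core at chr17:75004906-75005145, 542 bp upstream, and 2 weaker sites, 31.0 (14.1, 16.8) and 67.2 (40.0, 28.2), the latter at an internal TSS 173045 bp from the outermost 5′ end. Both strong sites had near values in the replicates. Ltbp4, whose loss disturbs elastic fibres of the lung, had 311 (154, 158) with the core at chr7:27332675-27332930 and 40.3 (18.5, 19.5), both at internal TSSs. Bmp1 had 267 (136, 133) at chr14:70520596-70520848. Ltbp3 had none, and its nearest site was 1033 bp away with 36.0 (13.1, 24.7).

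The Id genes encode inhibitors of basic helix-loop-helix factors and are direct targets of BMP-activated SMADs. Id1 had 31.6 (13.8, 17.2) in its UTR at chr2:152736159-152736438, and Id2 had 62.3 (34.2, 26.6) at chr12:25095155-25095434 and 39.4 (19.7, 19.9) at chr12:25095927-25096206. All 3 sites were without the core and differed by under 1.5 times between the replicates. Id3 had none, and its nearest site, 1196 bp away in an exon at chr4:136144553-136144832, had 25.51 (12.5, 11.8). Of all promoter sites of the 43 genes, those farthest from a TSS but still counted were Ltbp1 at 863 bp, Id2 at 792 bp, Ltbp4 at 789 bp, Smad9 at 633 bp and Inhbb at 626 bp. The nearest sites beyond the limit were those of Ltbp3 at 1033 bp, Fst at 1142 bp, Bmp2 at 1171 bp, Ltbp4 at 1185 bp, Tgfb2 at 1188 bp and Id3 at 1196 bp, and of these genes Fst, Ltbp4 and Tgfb2 had another site within it.

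Inside the genes, from start to end and promoter sites included, 41 of the 43 genes (95.3%) held at least 1 site, against 56.5% of all protein-coding genes. The exceptions were Chrd and Grem1. The genes were longer than the average, with a median of 39618 bp against 17385 bp, and long genes hold more sites. A site was found in 7 of 8 of these genes under 10 kb (87.5%, all genes 26.5%), in 15 of 16 between 10 and 50 kb (93.8%, all genes 63.2%) and in all 19 of 50 kb or more (100%, all genes 90.7%). The difference from all genes was thus present in each class of length and widest in the shortest. There were 176 sites, or 6.02 per 100 kb of gene, against 3.48 per 100 kb over all genes. Of the 152 that were not promoter sites, 135 lay in introns (88.8%), 10 in coding exons, 5 in UTRs and 2 in other exons. Density was 6.54 per 100 kb in ligands, 4.49 in receptors, 6.95 in SMADs and 6.94 in storage genes. It was 13.3 in antagonists and 74 in targets, which rest on 4 and 5 sites in short genes.

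**Figure D3:**
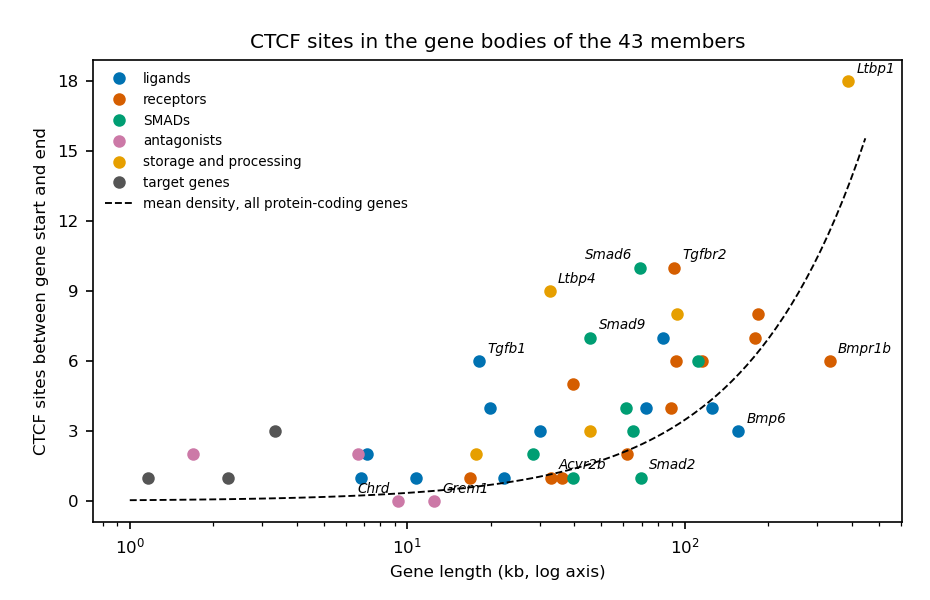
Number of sites inside each of the 43 genes (y axis) against gene length (x axis, kb, log axis), 1 point per gene coloured by role, with a dashed curve at the mean density of all protein-coding genes, 3.48 per 100 kb. Ltbp1 (18 sites), Smad6 and Tgfbr2 (10 each) and Ltbp4 (9) lie above the curve, and Bmpr1b, Bmp6 and Smad2 lie below it.

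Ltbp1 held the most sites, 18, of which 8 had the core, and the strongest was in an intron at chr17:75372458-75372674 with 297 (139.8, 157). Ltbp4 held 9 sites in a gene of 32557 bp, the strongest of all sites in these genes among them, 467 (235, 236) in an intron at chr7:27335939-27336215, 1607 bp from a TSS. Ltbp2 held 8, led by 409.9 (203, 208) at chr12:84784559-84784808 in an intron. These storage genes had strong sites both at and away from their promoters. Bmp1 held 3 and Ltbp3 held 2, at most 61.6 (34.1, 27.0) in a coding exon at chr14:70508426-70508705 and 72.9 (44.5, 29.7) in an intron at chr19:5743623-5743902.

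Of the SMADs, Smad6 held 10 sites, 8 with the core, and the strongest was in an intron at chr9:63956152-63956430 with 393 (194, 200.7). Smad9 held 7, 6 with the core, led by 251 (124, 130.0) in a coding exon at chr3:54797289-54797496. Smad3 held 6, with 174 (90.2, 81.3) in a coding exon at chr9:63650295-63650441, and Smad1 held 4, with 261 (138, 124) in a coding exon at chr8:79339639-79339862. In Smad9, Smad3 and Smad1 the strongest site in the gene lay in coding sequence. Smad5 held 1, 245 (124, 122) in an intron at chr13:56735577-56735786. Smad4 held 3, of which the strongest is the intron site given above. Smad2 held only the intron site given above, and Smad7 only its promoter sites.

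Of the receptors, Tgfbr2 held 10 sites, with 303 (162, 141) in a UTR at chr9:116087978-116088219. Acvr1b and Acvr2b, which had 5 and 1, held the strongest, 445 (222, 226) at chr15:101198268-101198530 and 441 (225, 219) at chr9:119430383-119430642, both in introns with an exact core. The replicates differed little at either. Tgfbr3 held 8 sites, led by 253 (137, 120.0) in an intron at chr5:107287264-107287488, and Acvr1 held 7, led by 257 (137, 122) in an intron at chr2:58477045-58477252. Bmpr1b, with 6 sites in 332290 bp, had 352 (181, 173) in a coding exon at chr3:141862866-141863105, and Tgfbr1, with 2, had 362 (188, 174) in an intron at chr4:47399916-47400155. Acvr2a held 4, led by 251 (120.5, 131) in an intron at chr2:48886153-48886370. Bmpr1a and Bmpr2 held 6 each. The strongest in Bmpr1a was its nearest site given above, and Bmpr2 had no site in the gene above 54.2 (30.9, 18.7), which lay in an intron at chr1:59764604-59764883. Eng and Acvrl1, the endothelial pair, held 1 each: 63.4 (35.1, 28.2) in repeat-masked intron sequence at chr2:32676877-32677156 for Eng, and the weak promoter site for Acvrl1.

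Of the ligands, Tgfb2 held 7 sites and Tgfb1 held 6, led by 185 (89.5, 92.7) at chr1:186699043-186699240 and 83.7 (42.7, 40.1) at chr7:25688117-25688396, both in introns. Bmp3 held 3, one of them the strongest inside a ligand gene outside its promoter, 332 (179, 153) in an intron at chr5:98878983-98879205. Inhba held 4 and Bmp6 held 3, led away from the promoter by 228 (115, 113) at chr13:16020744-16020942 and 242 (116, 126) at chr13:38438040-38438257, again in introns. Bmp5 and Bmp7 held 4 each, and their strongest were weaker, the Bmp5 site given above and 63.6 (32.4, 30.6) in an intron at chr2:172872856-172873135 for Bmp7. Bmp4 held 2, led by the site given above. Tgfb3, Inhbb and Bmp2 held 1 each: 127 (66.5, 59.6) at chr12:86076433-86076562 and 20.9 (9.62, 8.22) at chr1:119420176-119420455 in introns, and the UTR site of Bmp2. Among the short antagonist and target genes, Fst held 2, with 71.2 (46.6, 25.9) in an intron at chr13:114456212-114456491. Id2 held 3, Nog 2, and Id1 and Id3 held 1 each, and apart from the promoter sites only weak ones were found, such as 16.6 (3.68, 10.3) in an intron of Id2 at chr12:25094540-25094819.

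When the window was widened to 25000 bp on either side, 42 of the 43 genes (97.7%) had a site, against 83.5% of all protein-coding genes. A site among the 16183 of highest signal was found in or around 36 of the 43 (83.7%), against 60.1% of all genes. The strongest site was at the promoter in 3 genes (Tgfb3, Smad7 and Ltbp2), elsewhere in the gene in 15, and outside it in 24, of which 12 were upstream and 12 downstream. Over all genes with a site, 10.2% had their strongest at the promoter, 24.2% elsewhere in the gene and 65.7% outside it, against 7.14%, 35.7% and 57.1% of these 42. The strongest site held the core in 29 of the 42 (69%), against 64.2% of all genes with a site. The share at the promoter and the share with the core were thus near those of all genes.

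**Figure D4:**
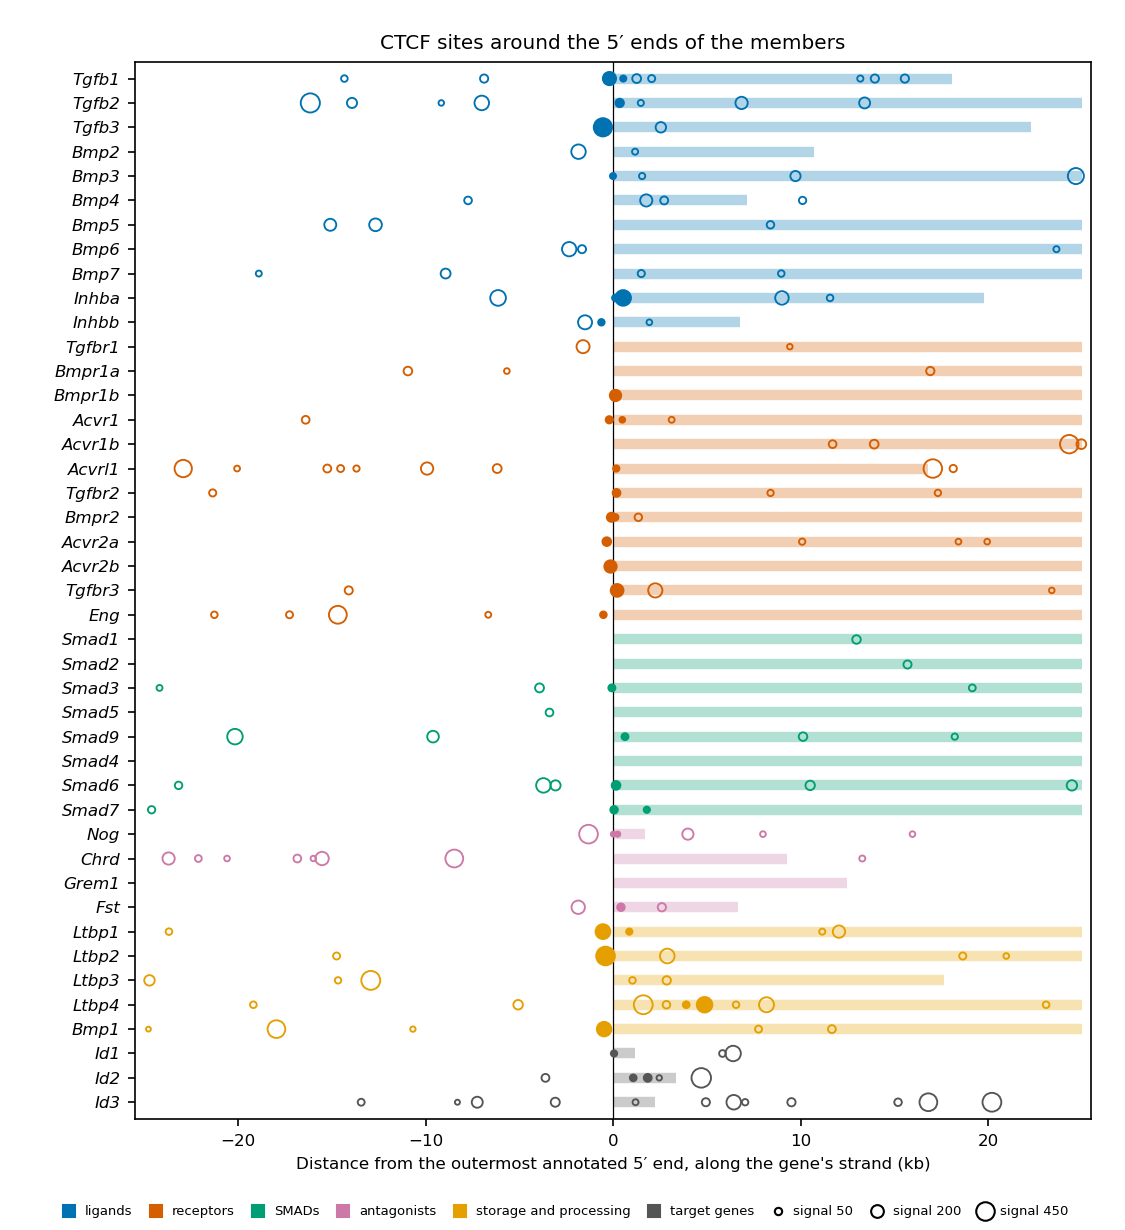
CTCF sites within 25 kb of the outermost 5′ end of each of the 43 genes (1 line per gene), as distance in kb along the strand of the gene, with circle size by pooled signal, filled circles for promoter sites, and the gene as a bar up to 25 kb. Large open circles lie just outside the short genes Nog (1312 bp upstream) and Id2 (1360 bp past its 3′ end). Grem1 has none in the list of reproducible sites used here. Smad4 has no circle either, as its site nearest to the outermost 5′ end lies 29435 bp from it.

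Eng had the strongest of all, 567 (294, 278) at chr2:32689427-32689777, 6942 bp past its 3′ end and inside the gene Fpgs, ranking 47 among all 64732 sites. This stood against 37.5 (22.2, 15.2) at its own promoter. Acvrl1, which acts with Eng in endothelium, had 449 (237, 217) at chr15:101145438-101145740, 237 bp past its 3′ end. That site lay between Acvrl1 and Acvr1b, neighbours on chromosome 15, and 28494 bp upstream of Acvr1b. Of the antagonists, Nog had 457 (222, 236) at chr11:89303502-89303781, 1312 bp upstream, and Fst had 224 (131, 92.1) at chr13:114460719-114460898, 1862 bp upstream. Nog thus combined the weakest promoter sites of the 43 genes with one of the strongest sites just beyond the limit. Id2 had 502 (243, 259) at chr12:25092300-25092590, 1360 bp past its 3′ end, Id3 had 465 (233, 236) downstream, and Id1 had 305 (156, 152) downstream. All 3 targets therefore had their strongest site beyond the 3′ end. Upstream of the gene lay the strongest sites of Ltbp3, 471 (233, 241) at 12925 bp, of Tgfb2, 482 (243, 241) at 16150 bp, and of Bmp1, 409 (209, 203) at 17957 bp. The weakest of the 42 were those of Smad7, its promoter site, and of Smad2, 66.8 (31.0, 35.5).

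The core motif, searched on both strands with at most 1 mismatch, was present at 6 of the 37 promoter sites (16.2%), against 20.6% of all promoter sites. It was present in 2.7% of windows 1000 bp from the 37 sites. The 6 sites were those of Acvr1, Eng, Smad6, Smad7, Ltbp1 and Ltbp4, printed above for 3 of them. Of the 176 sites inside the genes 75 had the core (42.6%), against 45.4% of all sites in genes. By role, these were 11 of 36 in ligands (30.6%), 25 of 57 in receptors (43.9%), 23 of 34 in SMADs (67.6%), 1 of 4 in antagonists (25%), 15 of 40 in storage genes (37.5%) and 0 of 5 in targets. SMAD genes thus had the highest share, to which Smad6 and Smad9 gave 14 of the 23, and ligand genes the lowest among roles with over 5 sites. The counts turned on the mismatch limit. With 0 mismatches, 0 promoter sites and 17 gene body sites (9.66%) had the core, against 3.9% and 10.9% of all such sites. With 2 mismatches these were 15 (40.5%) and 125 (71%), against 50.7% and 73.9%. Of windows 1000 bp from the 37 promoter sites, 14.9% then held it. In the RefSeq promoter table (GRCm38.p6, 250 bases before to 50 after each start), 30 of the 43 genes were matched, with 38 windows. The core was found in 0 of these 30 genes, against 1364 of 27025 genes (5.05%). A share of that size would give few among 30 genes, so the 0 is no result about them.

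The replicates differed at these sites about as much as at all sites. Of the 37 promoter sites 34 had a peak in both replicates, and the log2 ratio of replicate 1 to replicate 2 had a standard deviation of 0.45 over them, against 0.53 over all promoter sites. Over the sites inside the genes it was 0.51, against 0.47 over all such sites. The median log2 ratio was 0.11 at the promoter sites of the 43 genes and 0.08 at all promoter sites, so replicate 1 was slightly higher at both. Of the 37 sites 86.5% were also in the conservative list, against 82.5% of all promoter sites. None of the 37 lay in repeat-masked sequence, against 3.8% of all promoter sites, while 19.9% of the sites inside the genes did, against 15.9%.

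**Figure D5:**
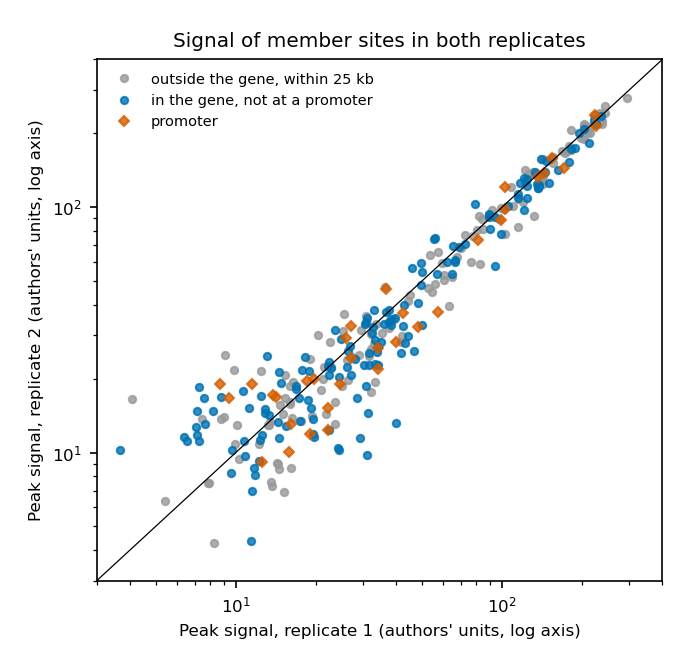
Signal in replicate 2 (y axis) against replicate 1 (x axis), both in the authors' units on log axes, for sites at promoters, elsewhere in the 43 genes and within 25 kb outside them, with the line of equal signal. Strong sites lie close to the line and weak ones scatter more widely around it.

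The nearest sites with the core on either side of each gene were then examined, because motif pairs that face each other are known from the ends of chromatin loops. They faced the gene in 15 of the 43 (34.9%), against 27.9% of all genes. They faced away in 10 (23.3%, all genes 25.6%) and ran on the same strand in 18 (41.9%, all genes 46.4%), so each arrangement was within 10 percentage points of its share over all genes. All 3 targets lay between facing motifs, as did 4 of 11 ligands (Tgfb2, Tgfb3, Bmp6 and Inhba), 2 of 12 receptors (Tgfbr2 and Tgfbr3), 2 of 8 SMADs (Smad1 and Smad3), 2 of 4 antagonists (Chrd and Fst) and 2 of 5 storage genes (Ltbp2 and Ltbp4).

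In 28 of the 43 genes (65.1%) no TSS of another protein-coding gene lay between these flanking motifs, against 23.6% of all genes. The intervals themselves were of similar length, with a median of 127 kb against 119 kb. By gene length, the share was 5 of 8 under 10 kb (62.5%, all genes 16.5%), 9 of 16 between 10 and 50 kb (56.2%, all genes 23.3%) and 14 of 19 of 50 kb or more (73.7%, all genes 35%). It stood above that of all genes in each class. By role it was 8 of 11 ligands, 9 of 12 receptors, 5 of 8 SMADs, 2 of 4 antagonists, 2 of 5 storage genes and 2 of 3 targets. The shortest interval was that of Nog, 9.30 kb, from a weak site of 21.5 (13.7, 7.28) to the strong upstream site printed above. The longest was that of Acvr2a, 907 kb, from 268 (139, 129) to 175 (82.1, 91.8), and Inhba followed with 778 kb. Neither held another protein-coding TSS. Among the genes that were not alone, Tgfb3 shared its interval with Ift43, Fst with Ndufs4, and Bmp1 with 5 genes that include Sftpc, which encodes a surfactant protein of alveolar cells. These neighbours were picked after the intervals were known. With an exact core required, the count was 7 of 43 (16.3%), against 5.31% of all genes. How much of the difference comes from the spacing of genes around these loci was not tested.

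Of 76 other genes of the superfamily, drawn from a wider list of ligands, receptors, modulators, intracellular regulators and targets, 34 had a promoter site (44.7%), 55 had a site in the gene (72.4%) and 75 had one in or within 25000 bp (98.7%). Promoter sites were found at 6 of 22 further ligands (27.3%), 4 of 8 receptors and co-receptors (50%), 9 of 23 antagonists and modulators (39.1%), 10 of 15 intracellular regulators (66.7%) and 5 of 8 targets (62.5%). The promoter share of this wider list was closer to the 39.8% of all genes than that of the 43. The strongest promoter sites were at Bambi, a decoy receptor, with 395 (207, 189.5), and Gdf5, a ligand of joint development, with 319.9 (165, 156) at chr2:155946168-155946410. They were followed by Thbs1, an activator of latent TGF-beta, with 287 (132, 157), the chordin-like Chrdl2 with 284 (150.3, 136), and Amh, the hormone that regresses the Müllerian duct, with 255.6 (128, 129.7).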

How the data were processed

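CTCF ChIP-seq peak lists from newborn mouse lung were used, in 1 group of 2 replicates. The authors deposited a signal and a summit position for every peak. Per the deposited file descriptions, the lists are on mm10, each replicate list came from the alignments of that replicate and 1 further file of unstated role, and both the optimal and the conservative list hold peaks that passed an IDR threshold on the replicate and pooled lists. The sources used here do not give the aligner, peak caller, IDR threshold or signal scaling, and the lists carry no read depth.

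The optimal list was used on chromosomes 1 to 19 and X (64732 of 64742 sites). It carries pooled signals; the value in each replicate was read from the highest peak with a summit no more than 100 bp away in that replicate's own list. Genes were those of GENCODE M21 on GRCm38. The core motif of 12 bases was searched in the 50 bp on either side of each summit and in windows 1000 bp to either side. Flanking motifs were the nearest sites with the core outside each gene, leaving out those with equal matches on both strands. Analysis used Python 3.11.15, pandas 2.3.3, numpy 2.4.6, pysam 0.24.0 and samtools 1.23.1, and the counting was tested on simulated data. All genes of the list were named, with their strongest promoter and gene body sites or, failing a promoter site, the nearest site; of the wider list, which held 77 names of which 76 were in the annotation, the 5 strongest by mean rank were named. The genes, roles and lists were chosen with earlier results of these data known. No test was made, as there was 1 group.

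Alternatives were to use the 32366 sites of highest signal or the conservative list, to leave out each replicate, to drop sites within 500 bp of a stronger one, and to use other distances from the TSS (500 and 5000 bp, and the outermost 5′ end alone), other distances around genes (10000 and 50000 bp), other mismatch limits and a wider motif window. Those for genes alone between flanking motifs were added after seeing the data.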

Additional observations from a re-analysis of the deposited data

Results flagged for a closer look

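The report used reproducible sites only. In the pooled list there were 745 further peaks in or within 25000 bp of the 43 genes that were in neither IDR-thresholded list and lay over 2000 bp from a listed site. The core motif was present in 37 of them, or 4.97% (95% Wilson interval 3.62 to 6.77%, which covers counting error only), against 17 of 1490 windows (1.14%) 1000 bp from their summits. This was picked out because the share in peaks outside the main measurement stood above that of the surrounding sequence. It was far below the 43.5% of the 331 reproducible sites around the same genes. The share in such peaks around all genes was not counted, so the 4.97% is no result about these genes.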

How the results depend on the processing

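Of 97 values under alternatives, over 13 results, 70 stayed within 1.5 times the reported count, or within the replicate spread of the median log2 signal, 27 moved and 0 reversed. Fewer sites and a narrower or wider limit change such counts by construction, and no other cause was tested. With the 32366 sites of highest signal the counts with a promoter site were 13 of 43 genes, 3 ligands, 5 receptors, 1 SMAD, 0 antagonists and 16 other pathway genes, and 25 genes held 60 sites in their bodies. Promoter sites were then at 30.2% of the 43 genes and 19.2% of all genes, and body sites in 58.1% and 39.7%. The core was then at 3 promoter and 39 gene body sites. With 5000 bp from the TSS, promoter sites were counted at 10 ligands, 7 SMADs and 55 other pathway genes, and 31 held the core, against 3 with 500 bp. With 0 mismatches 0 promoter and 17 gene body sites held the core, and with 2 it was 15 and 125. Of all promoter and gene body sites, 3.9% and 10.9% held it with 0 mismatches, and 50.7% and 73.9% with 2. With 0 mismatches 7 genes were alone between flanking motifs. In the conservative list 1 antagonist had a promoter site. The median log2 signal of promoter sites, 5.77, was 5.44 in the conservative list, 7.78 in the sites of highest signal, 5.86 without close sites, 5.70 with 500 bp and 6.06 with 5000 bp, where the spread between replicates was 0.012. That spread is between medians over 37 sites in replicate 1 and over the 34 with a peak in replicate 2.

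With a replicate left out, the 64732 highest peaks of the other one were used. Promoter sites were then counted at 29 to 31 genes, 7 ligands, 10 receptors, 5 SMADs, 1 to 2 antagonists and 33 to 37 other pathway genes. Body sites numbered 175 to 185 in 38 to 39 genes, 43 genes had a site within 25000 bp, the core was at 8 to 9 promoter and 73 to 76 gene body sites, and 28 genes were alone between flanking motifs. Of all genes, 40.3 to 40.4% then had a promoter site, 56.5 to 56.8% a body site and 83.6% a site within 25000 bp. Between 23.3 and 23.5% of all genes were alone between flanking motifs. The promoter signal had no value with a replicate left out, since each replicate has its own scale. No paired analysis was possible because there was 1 group. The lists give no reads, so weak sites such as those of Nog cannot be placed against a detection limit.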

Other observations

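Of the 16 genes without a promoter site, 14 had a peak of the pooled list within 1000 bp of a TSS that was not in the optimal list. The exceptions were Bmp7 and Grem1. The pooled list held 300000 peaks, and the share of all genes without a promoter site that had such a peak was not counted. The count of 14 is therefore no result about these genes. The highest of the peaks at the 14 genes were those of Bmpr1a, 30.6 (17.1, 12.2), Bmp2, 29.0 (11.3, 17.5), and Smad2, 27.7 (13.04, 14.7). These are pooled signals with replicates 1 and 2 in parentheses. They were followed by Id3 with 21.9 (10.6, 12.02), Bmp6 with 20.9 (10.2, 12.02) and Smad5 with 18.5 (9.47, 8.39). These signals lie above those of the weakest promoter sites that the optimal list does hold, 14.6 and 9.66 at Nog. Those of Bmpr1a, Bmp2 and Smad2 also lie above listed promoter sites of Inhba (27.5), Bmp3 (27.3) and Acvr1 (22.0). Bmp4, Acvr1b and Bmp5 had 16.4, 14.9 and 14.2, and in Bmp4 and Acvr1b no peak of replicate 2 lay within 100 bp. The peaks of Smad1, Chrd, Ltbp3, Smad4 and Tgfbr1 had pooled signals between 9.94 and 11.9. The conservative list, which is not a subset of the optimal one, counted promoter sites at 6 of these genes (Bmp4, Bmp6, Bmpr1a, Id3, Smad2 and Smad5) and none at Acvrl1 and Nog.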
